A study of Bos taurus with 8 samples.

Results

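LEF1, TCF7, KLF2 and S1PR1 are genes that mark the resting, circulating state of a T cell, and they are 4 of the 21861 genes listed in the single-cell RNA tables. They were found by gene name (LEF1 ENSBTAG00000006844, TCF7 ENSBTAG00000001002, KLF2 ENSBTAG00000052504 and S1PR1 ENSBTAG00000005990), and the same identifiers were read in the chromatin accessibility tables. The blood came from Holstein cows, which were female, lactating and 2 years old. Blood of 4 animals was pooled and split into 4 portions, 1 without LPS and 3 kept with 2 µg/ml LPS (lipopolysaccharide, a component of the outer membrane of Gram-negative bacteria) for 2 h, 4 h or 8 h. LPS was added to whole blood, and mononuclear cells (PBMCs) were isolated afterwards. No incubation time is given for the portion without LPS, so LPS and time in incubation cannot be told apart. Each portion gave 1 scRNA-seq and 1 scATAC-seq library, so treatments could not be compared over replicates, no test was possible, and every interval below is a 95% interval for counting error only.

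In a resting T cell, the paired transcription factors LEF1 and TCF7 act at the end of the Wnt pathway and keep naive and memory precursor cells able to renew themselves. KLF2 is a transcription factor that keeps T cells quiescent and switches on S1PR1. S1PR1 is the receptor through which a T cell follows sphingosine 1-phosphate out of lymphoid tissue into blood, and CD69, an early activation protein, binds S1PR1 and removes it from the cell surface.

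T cells were taken as cells with at least 1 UMI (a unique molecular identifier, 1 counted RNA molecule) of CD3D, CD3E or CD3G, the chains of the T cell receptor complex. Within them, 3 gates were set by at least 1 UMI of CD4, of CD8B, or of a WC1 gene, the family of scavenger receptors that marks a large class of γδ T cells in cattle. The CD4 gate held 1237, 1566, 1191 and 546 cells (no LPS, 2 h, 4 h and 8 h, the order used throughout), the CD8B gate 533, 665, 528 and 259, and the WC1 gate 330, 311, 228 and 144. The gates were not exclusive. Cells also in another gate numbered 62, 61, 39 and 25 for CD4, 38, 37, 26 and 12 for CD8B and 52, 44, 30 and 19 for WC1. Levels are given as CPM, the UMIs of a gene per 1000000 UMIs summed over the cells of a gate, in which a different mix of cells and a different amount of RNA per cell cannot be told apart. The CD4 T cell markers (CD4, CD40LG, ICOS, CTLA4 and FOXP3) summed to between 477 and 502 CPM in the CD4 gate. They summed to 57.7 to 65.5 CPM in the CD8B gate and to 116 to 144 CPM in the WC1 gate. The CD8 T cell markers (CD8A, CD8B, EOMES and GZMK) summed to between 383 and 457 CPM in the CD8B gate and to at most 14.3 CPM in the CD4 gate. The detected γδ T cell markers (SOX13, BLK and 3 WC1 genes) summed to between 637 and 813 CPM in the WC1 gate and to at most 40.9 CPM in the other gates. Each of these 3 sums includes the gene or genes that set its own gate, so a higher value there was fixed in advance. The αβ T cell markers CD28, CD5 and CD6 were still present in the WC1 gate at 72.1 to 109 CPM, against 94.4 to 133 CPM in the CD8B gate and 243 to 260 CPM in the CD4 gate, so the WC1 gate is named by its gene and not as a pure γδ population.

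The cells kept in the 4 libraries numbered 7821, 9865, 7387 and 3411, with between 16657841 and 47875879 UMIs, and 8 to 24 barcodes were shared between any pair of libraries. The paper reports fewer cells in each library after its own quality control, so the cells kept here are not the same set. Markers of other cells differed between libraries inside the T cell gates. The 5 monocyte markers (CD14, CSF1R, LYZ, VCAN and CD68, none at 0) summed to 144 CPM in the WC1 gate without LPS and to 75.7, 32.8 and 53.5 CPM with LPS, and to 86.7, 61.4, 27.6 and 41.2 CPM in the CD4 gate. The 5 B cell markers ranged from 52.9 to 75.5 CPM in the CD4 gate, 54.4 to 102 in the CD8B gate and 67.1 to 143 in the WC1 gate. The 6 NK cell markers were NCR1, KLRB1, KLRF1, NCAM1, PRF1 and GNLY, with NCAM1 at 0. They summed to 483, 486, 529 and 188 CPM in the CD8B gate. Whether NK cells or the CD8 T cells themselves carried these transcripts was not tested, so the sum is not read as an amount of NK cells. The part of these other cells and transcripts in the results below was not tested except where a value without them is given.

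LEF1 was a T cell transcript in every library. Its level in the CD4 gate was 95.3, 86.8, 98.4 and 121 CPM. The CD8B gate lay close to it at 89.0, 76.3, 90.6 and 134 CPM, and the WC1 gate lay lower at 48.1, 44.7, 35.1 and 48.8 CPM. In B cells, which should lack it, LEF1 reached 0.67 to 2.70 CPM, and in monocytes at most 2.21 CPM. LEF1 in the CD4 gate was 1.98 times that in the WC1 gate without LPS (95% counting interval 1.55 to 2.56) and 1.94, 2.80 and 2.47 times at 2 h, 4 h and 8 h, with every interval above 1. The CD4 and CD8B gates did not differ beyond counting error in any of the 4 libraries, the largest ratio being 1.14 at 2 h (0.99 to 1.31).

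LEF1 with LPS was near its level without LPS at 2 h and 4 h and higher at 8 h. In the CD4 gate the ratio to no LPS was 0.911 after 2 h (0.815 to 1.02), 1.03 after 4 h (0.923 to 1.16) and 1.27 after 8 h (1.11 to 1.44). CD8B cells gave 0.858 (0.720 to 1.02), 1.02 (0.855 to 1.21) and 1.502 (1.24 to 1.81). In the WC1 gate all 3 intervals held 1, with ratios of 0.93, 0.73 and 1.02. Over all T cells, whatever their gate, LEF1 was 1.32 times its level without LPS at 8 h (1.22 to 1.43). The 8 h values were smaller with the upper limit on genes per cell removed, since the log2 ratio was then 0.09 in the CD4 gate in place of 0.34, and 0.21 in the CD8B gate in place of 0.58. The lower sum of NK cell markers in the CD8B gate at 8 h (188 against 483 CPM) stands beside the CD8B value.

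TCF7, the partner of LEF1, was lower in the CD4 gate soon after LPS. Its levels there were 193, 149.7, 167 and 182 CPM, so that all 3 LPS libraries lay below the library without LPS. In the CD8B gate they were 194, 194, 203 and 248.4 CPM, and in the WC1 gate 183, 162, 133 and 155 CPM. Without LPS every ratio between the 3 gates had an interval that held 1. NK cells carried TCF7 too, at 85.0 to 157 CPM, while B cells had 3.19 to 9.32 CPM.

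In the CD4 gate the ratio of TCF7 to no LPS was 0.776 after 2 h (0.716 to 0.842), 0.868 after 4 h (0.800 to 0.942) and 0.945 after 8 h (0.856 to 1.04). CD8B cells gave 0.998, 1.04 and then 1.28 at 8 h (1.12 to 1.46), where the log2 ratio was 0.14 in place of 0.35 without an upper limit on genes and NK cell markers summed to 188 against 483 CPM. The WC1 gate was lowest at 4 h, at 0.724 (0.596 to 0.879), a log2 ratio of -0.46 that was -0.17 without an upper limit on genes. The difference in log2 ratio between the CD4 and CD8B gates was -0.36 at 2 h (-0.56 to -0.16) and -0.44 at 8 h (-0.67 to -0.20), beyond counting error at both. Between the CD8B and WC1 gates it was 0.53 at 4 h (0.21 to 0.85) and 0.60 at 8 h (0.25 to 0.95). The lower TCF7 at 2 h in the CD4 gate was lost when cells with over 3000 genes were kept, the log2 ratio moving from -0.36 to 0.02. Such cells held 43.2% of the CD4 gate's UMIs without LPS and 25.1% at 2 h, their TCF7 stood at 36.2 and 60.6 CPM, and 69.9% and 57.8% of them had a UMI of MS4A1, CD79A, CD14 or LYZ, markers of B cells and monocytes. Within the 3000-gene limit and without any cell carrying such a UMI, the log2 ratio of TCF7 in the CD4 gate was -0.37, -0.24 and -0.14 at the 3 times.

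**Figure D1:**
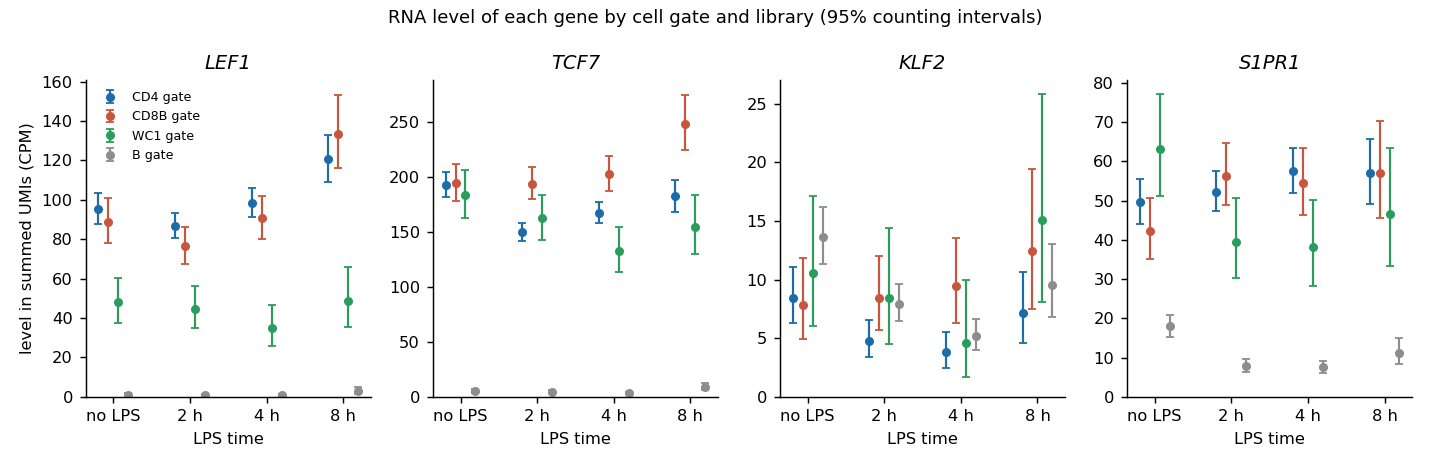
RNA level (CPM) of each gene against LPS time in the CD4, CD8B, WC1 and B gates, 1 point for each library with its 95% counting interval. LEF1 and TCF7 are near 0 in the B gate, LEF1 is highest at 8 h in the CD4 and CD8B gates, and S1PR1 in the WC1 gate lies at 63.3 CPM without LPS and at 39.5 CPM at 2 h.

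KLF2 was scarce in these libraries, and its level in B cells, at 5.20 to 13.6 CPM, overlapped that in T cells. The CD4 gate had 8.42, 4.77, 3.801 and 7.17 CPM, from 52, 38, 26 and 24 UMIs. The CD8B gate had 7.83, 8.42, 9.45 and 12.5 CPM, from 22, 30, 29 and 19 UMIs. The WC1 gate had 10.5, 8.41, 4.58 and 15.1 CPM, from 16, 13, 6 and 13 UMIs. With so few molecules, the intervals of single-gate ratios were wide, for example 0.600 to 1.96 for the CD8B gate at 2 h.

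Even so, KLF2 in the CD4 gate lay below its level without LPS at 2 h and 4 h, at ratios of 0.566 (0.363 to 0.877) and 0.451 (0.270 to 0.736), and at 8 h it was at 0.851 (0.501 to 1.40). Over all T cells, with 364 and 313 UMIs behind the comparisons, KLF2 was 0.747 after 2 h (0.605 to 0.922), 0.621 after 4 h (0.492 to 0.781) and 1.19 after 8 h (0.934 to 1.52). B cells also had less KLF2 at 2 h and 4 h, at ratios of 0.581 (0.445 to 0.758), 0.382 (0.277 to 0.521) and 0.701 (0.477 to 1.01). KLF2 in CD8B cells had ratios of 1.08, 1.21 and 1.59 and intervals that all held 1. The difference in log2 ratio between the CD4 and CD8B gates was -1.42 at 4 h (-2.47 to -0.37), and at 2 h its interval held 0.

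S1PR1 was higher with LPS in CD8B cells and lower in WC1 cells. The CD8B gate had 42.4 CPM without LPS and 56.4, 54.4 and 57.0 CPM with it. The WC1 gate had 63.3 CPM without LPS and 39.5, 38.1 and 46.5 CPM with it. In the CD8B gate all 3 LPS libraries lay above the library without LPS, and in the WC1 gate all 3 lay below it. The WC1 value at 8 h did not stay below it in sums over cells thinned to 1000 UMIs, with a log2 ratio of 0.027. The ratios were 1.33 (1.06 to 1.69), 1.28 (1.01 to 1.64) and 1.35 (1.01 to 1.79) in the CD8B gate, and 0.624 (0.445 to 0.869), 0.603 (0.419 to 0.857) and 0.735 (0.495 to 1.07) in the WC1 gate. The difference between the gates' log2 ratios after 2 h was 1.09 (0.53 to 1.66), after 4 h 1.09 (0.49 to 1.69) and after 8 h 0.87 (0.21 to 1.54). Without LPS S1PR1 was higher in WC1 than in CD4 and CD8B cells, and at 2 h and 4 h it was lower than in both, each beyond counting error, while at 8 h both intervals held no difference. In the CD8B gate monocyte markers summed to 68.0, 31.2, 33.9 and 29.5 CPM. NK cell markers there summed to 483 CPM without LPS and to 188 CPM at 8 h. These sums stand beside the CD8B values of S1PR1.

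In CD4 cells no difference from no LPS was beyond counting error, with 49.6, 52.2, 57.5 and 57.0 CPM and ratios of 1.05, 1.16 and 1.15 whose intervals all held 1. Over all T cells S1PR1 was 0.952 to 1.03 times its level without LPS. B cells, like WC1 cells, had less S1PR1 with LPS, at 17.9, 7.86, 7.47 and 11.3 CPM, with ratios of 0.438 (0.340 to 0.562), 0.416 (0.318 to 0.542) and 0.629 (0.444 to 0.877). Monocyte markers in the B gate, beside both KLF2 and S1PR1, summed to 416, 126, 79.6 and 76.1 CPM, and their part in the B cell values was not tested. Among WC1 cells with no UMI of MS4A1, CD79A, CD14 or LYZ, the log2 ratio of S1PR1 was -0.27 at 2 h in place of -0.67, -0.72 at 4 h as before, and -0.17 at 8 h in place of -0.44. The value at 4 h was as large without these cells, and those at 2 h and 8 h were smaller.

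**Figure D2:**
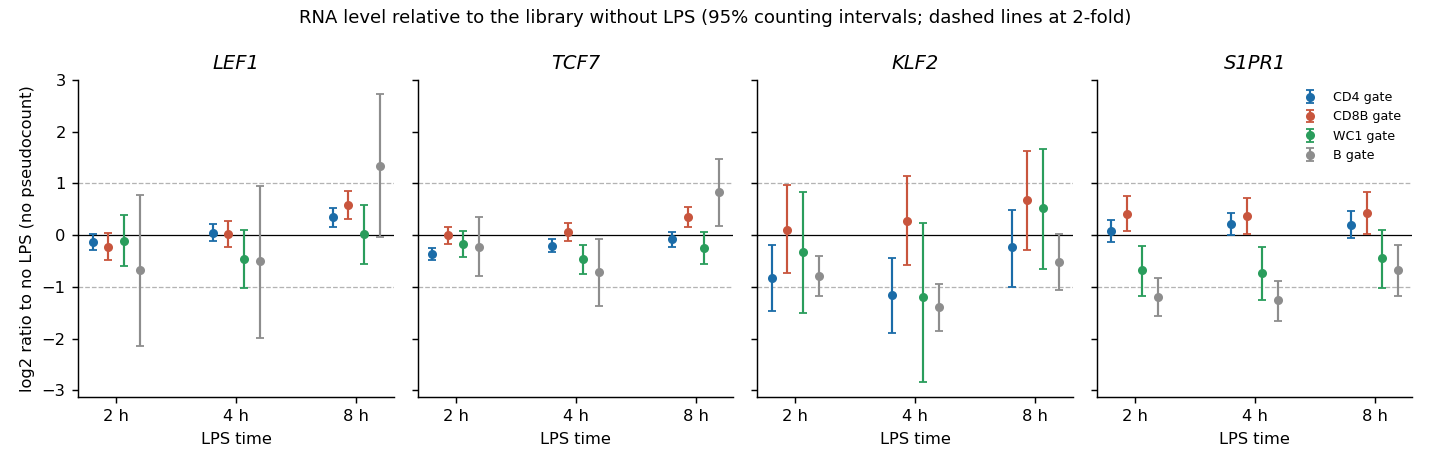
Log2 ratio of each gene to the library without LPS, with no pseudocount, against LPS time in the CD4, CD8B, WC1 and B gates, with 95% counting intervals. S1PR1 lies above 0 in the CD8B gate and below 0 in the WC1 and B gates, and KLF2 lies below 0 in the CD4 and B gates at 2 h and 4 h.

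None of the 4 genes was 2-fold off its level without LPS in the CD4 or CD8B gate, counted on the log2(CPM + 1) scale. Among all genes that reached 20 UMIs in the pair of libraries, 1.75%, 3.08% and 2.07% were past 2-fold in the CD4 gate at 2 h, 4 h and 8 h, and 2.33%, 2.66% and 4.00% in the CD8B gate. In the WC1 gate 0 of 4, 1 of 4 and 0 of 4 were past it, beside 5.73%, 7.98% and 4.40% of all genes. That 1 gene was KLF2 at 4 h, with a log2 ratio of -1.05 from 22 UMIs and a counting interval that held no change. It was within 2-fold with a pseudocount of 10 CPM (-0.50) and without an upper limit on genes (-0.65), and under 3 other choices of cells it had fewer than 20 UMIs. In the CD4 gate KLF2 at 4 h came close at -0.97, and without the pseudocount it was past 2-fold. At a fold of 1.5, the genes past it were 1, 1 and 0 of 4 in CD4 cells, 0, 0 and 1 of 4 in CD8B cells and 1, 2 and 0 of 4 in WC1 cells, beside 7.37%, 10.6% and 9.69%, 10.3%, 10.8% and 16.0%, and 18.8%, 22.9% and 17.7% of all genes.

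To see how the cells of a gate differed, each cell was thinned to 1000 UMIs and scored for at least 1 UMI. A LEF1 molecule was then seen in 8.98% to 11.3% of CD4 cells, 9.12% to 13.5% of CD8B cells and 3.87% to 4.90% of WC1 cells, against 0.04% to 0.82% of B cells at the same depth. TCF7 was seen in 15.8% to 17.2% of CD4 cells, 16.8% to 22.6% of CD8B cells, 12.3% to 22.4% of WC1 cells and 0.16% to 1.79% of B cells. KLF2 was at or under 2.38% in the 3 T cell gates, and B cells had 0.57% to 1.41%, so the shares in T and B cells overlapped. S1PR1 was seen in 2.67% of CD8B cells without LPS (1.47% to 4.43%) and 5.78%, 5% and 5.56% with it, and in 7.62% of WC1 cells without LPS and 3.55%, 3.07% and 8.39% with it. At 8 h the WC1 share went against the summed level, so no order is read from it. Between 61.5% and 80.7% of the T cells showed none of the 4 genes at this depth, and 0.88% to 5.16% showed 2 or more.

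Cells with and without a LEF1 UMI were compared within each gate and library, 12 pairs in all. Cells of the same library are not replicates, so these values are a description. The split was planned on cells thinned to 1000 UMIs, where 7 to 141 cells of a gate kept a LEF1 UMI. The share of cells with a CCR7 UMI, the receptor that leads T cells into lymph nodes, was then higher in the LEF1 cells in 11 of 12 pairs, and in 2 of them the share in the rest lay below the interval of the LEF1 cells. These were CD8B cells without LPS, at 36.7% (23.4% to 51.7%) and 20.0%, and CD4 cells at 4 h, at 42.5% (33.5% to 51.9%) and 32.5%. CD4 cells without LPS went the other way, at 20.9% (13.7% to 29.7%) and 24.5%. The share with a TCF7 UMI was higher in 9 of 12 pairs, with 2 beyond the interval, that of S1PR1 in 5 of 12 and that of KLF2 in 3 of 12, with none beyond it.

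At full depth, a split made after seeing the data and compared on CPM, CCR7 was higher in the LEF1 cells in 12 of 12 pairs, by 1.27 to 2.75 times, and 12 of 12 intervals lay above 1. In CD4 cells without LPS, CCR7 was 337 CPM in cells with a LEF1 UMI and 265 CPM in cells without one, and at 8 h 439 and 328 CPM. The first of these is opposite in direction to the thinned cells, with 264 and 309 CPM. TCF7 was higher in 11 of 12 pairs, by up to 1.40 times, and 7 intervals lay above 1. S1PR1 was higher in 10 of 12 pairs, with 3 intervals above 1, and KLF2 in 6 of the 11 pairs where it could be computed, with none. Other T cell genes did not all stay level: CD3E, a chain of the receptor complex, was higher in 1 of 12 pairs, ETS1, a transcription factor of lymphocytes, in 6 of 12 and IL7R, the receptor for IL-7, in 3 of 12. Cells with a LEF1 UMI had somewhat more UMIs, for example a median of 4758 against 4387 in CD4 cells without LPS.

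CD69 RNA was higher with LPS in all 3 gates at all 3 times. In the CD4 gate CD69 was at 21.2, 63.8, 53.8 and 33.4 CPM, in the CD8B gate at 25.3, 62.3, 39.1 and 45.9 CPM and in the WC1 gate at 7.91, 47.2, 38.9 and 50.0 CPM. In CD4 cells thinned to 1000 UMIs, the split by CD69 that was planned, only 24, 69, 55 and 9 cells kept a CD69 UMI. S1PR1 was then seen in 5.80% of the CD69 cells at 2 h (1.60% to 14.2%) and 5.60% of the rest, and at 4 h in 5.45% (1.14% to 15.1%) and 6.85%, so no difference was detectable at this depth. TCF7 was seen in 10.1% (4.18% to 19.8%) and 16.1% at 2 h and in 16.4% (7.77% to 28.8%) and 16.0% at 4 h.

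The same split at full depth was made after seeing the data, and there a CD69 UMI was present in 104, 284, 211 and 78 CD4 cells. These cells had lower S1PR1 CPM than the other CD4 cells at 2 h and 4 h. RNA counts do not measure S1PR1 protein or its removal from the cell surface. S1PR1 was at 33.9 CPM in CD69 cells and 57.3 CPM in the rest at 2 h, at 41.9 and 61.3 CPM at 4 h, and at 40.3 and 60.3 CPM at 8 h. Without LPS the levels were 46.8 and 49.9 CPM. The folds with LPS were 0.592 (0.440 to 0.782), 0.683 (0.505 to 0.909) and 0.669 (0.408 to 1.05), and without LPS the fold was 0.939 (0.613 to 1.39). Over all T cells the fold was below 1 without LPS too, at 0.779 (0.603 to 0.992), and was 0.759 (0.649 to 0.883), 0.783 (0.665 to 0.919) and 1.09 (0.854 to 1.37) with LPS.

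At full depth TCF7 was also lower in CD69 cells of the CD4 gate at 2 h and 4 h, while no LEF1 interval was off 1. TCF7 in CD69 cells of the CD4 gate was 0.799 times that in the rest at 2 h (0.686 to 0.927), 0.834 at 4 h (0.710 to 0.974), 0.843 at 8 h (0.663 to 1.06), and 1.05 without LPS (0.859 to 1.26). LEF1 was 0.96 to 1.15 times, with 4 of 4 intervals holding 1. CD3E was lower in the same cells, at 0.81 to 0.92, with 3 of 4 intervals below 1. S1PR1 in CD8B cells gave folds of 0.71 to 1.21 and in the WC1 gate of 0.49 to 1.31, and every interval held 1. The CD69 cells of the CD4 gate were deeper, with medians of 5310.5 to 6715.5 UMIs against 4420.5 to 5752.5, and whether the difference in the split depends on LPS was not tested.

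**Figure D3:**
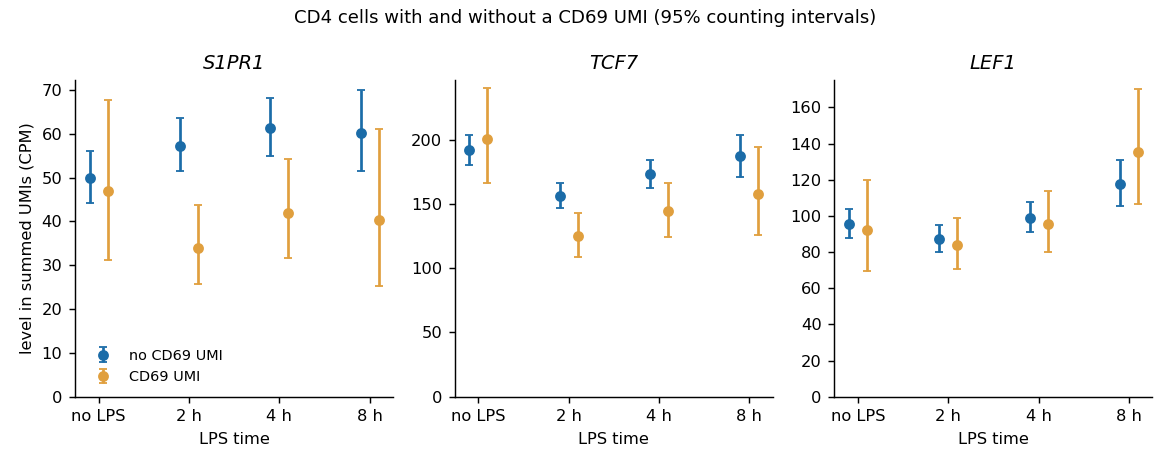
RNA level (CPM) of S1PR1, TCF7 and LEF1 in CD4 cells at full depth with a CD69 UMI (orange) and without one (blue), 1 point for each library with its 95% counting interval. S1PR1 in the CD69 cells lies at 33.9 CPM against 57.3 CPM at 2 h, while LEF1 does not differ beyond its intervals in any library.

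The other homing genes differed in direction. CCR7 was higher in all 3 gates, with intervals off 0 except in WC1 cells at 8 h, with log2 ratios of 0.39 to 0.59 in the CD4 gate and 0.44 to 0.52 in the CD8B gate, and from 71.8 CPM to 117, 167 and 79.1 CPM in the WC1 gate. CXCR4, the receptor for CXCL12, was higher in the CD4 and CD8B gates by 0.16 to 0.57. GPR183, an oxysterol receptor that places lymphocytes within lymphoid tissue, was higher by 0.41 to 0.51 in the CD4 gate. In the WC1 gate it was higher by 0.90 and 1.00 at 2 h and 4 h, neither counted as past 2-fold. Against these, the integrin chain ITGA4 and the P-selectin ligand SELPLG had negative log2 ratios in all 9 comparisons. They were -0.13 to -0.61 for ITGA4 and -0.21 to -0.78 for SELPLG. Values are not given here for CXCR4 in the WC1 gate, or for GPR183 in the CD8B gate and at 8 h in the WC1 gate. The same holds for ITGAL, ITGB7 and S1PR4. The median over the homing and egress genes was below 0 in the CD8B and WC1 gates at every time. The genes named as higher therefore do not stand for the whole list in those gates.

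Of the 9 homing and egress genes reported, 8 had enough UMIs, and of these 0 were past 2-fold in the CD4 and CD8B gates at any time. In the WC1 gate 1 of 8 was past it at 4 h, CCR7 upward, and 0 at 2 h and 8 h. The shares over all genes were 1.75% to 3.08% in the CD4 gate, 2.33% to 4.00% in the CD8B gate and 4.40% to 7.98% in the WC1 gate. The list's median log2 ratio was 0.04, -0.19 and -0.11 in the CD4 gate, beside -0.02, -0.01 and 0.01 over all genes tested. It was -0.26, -0.12 and -0.24 in the CD8B gate, beside 0.02, 0.02 and 0.03, and -0.14, -0.45 and -0.06 in the WC1 gate, beside -0.02, 0.01 and 0.01.

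**Figure D4:**
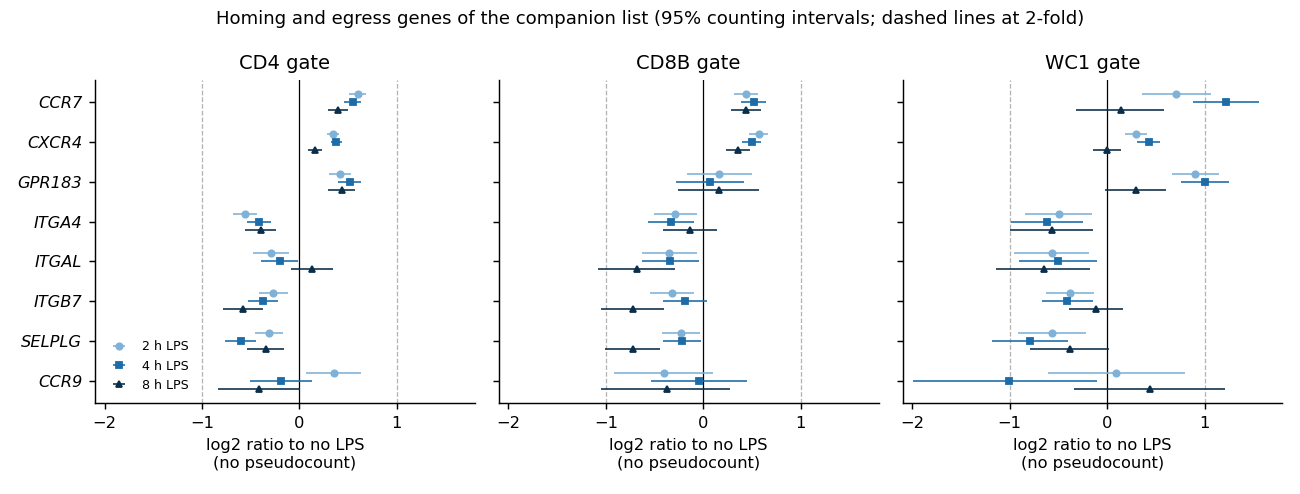
Log2 ratio to no LPS, with no pseudocount, of 8 homing and egress genes in the 3 T cell gates at 2 h (circles), 4 h (squares) and 8 h (triangles), with 95% counting intervals. CCR7 lies right of 0 in every gate, and ITGA4 and SELPLG lie left of it.

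Among genes of quiescence and the naive state, ID3 was past 2-fold in CD4 and WC1 cells at 2 h and 4 h. ID3, an inhibitor of E proteins that holds back differentiation, was at 17.3, 7.28, 7.16 and 8.66 CPM in the CD4 gate and at 148, 57.0, 61.8 and 112 CPM in the WC1 gate. Its log2 ratios were -1.15, -1.17 and -0.92 in the CD4 gate and -1.37, -1.25 and -0.41 in the WC1 gate. CD8B cells had 16.7, 15.2, 30.3 and 24.9 CPM of ID3, with no interval below 0. In these cells ID3 was thus higher than without LPS at 4 h and 8 h, opposite in direction to the CD4 and WC1 gates. KLF3, a relative of KLF2, had negative log2 ratios in all 9 comparisons and was past 2-fold in the WC1 gate at 4 h, at -1.20. BACH2, a repressor of effector genes, was higher by 1.41 in the CD8B gate at 8 h and by 1.24 in the WC1 gate at 2 h, from 49 and 60 UMIs, and BTG2 by 1.62 in the WC1 gate at 2 h, from 28 UMIs.

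The rest of the quiescence list was within 2-fold among genes with at least 20 UMIs. Of its 19 genes, 18 were measured in the CD4 gate, where 1, 1 and 0 were past 2-fold, and their median log2 ratios were 0.02, -0.07 and -0.01. In the CD8B gate 0 of 18, 0 of 18 and 1 of 17 were past it, and in the WC1 gate 3 of 16, 2 of 15 and 0 of 15. Over all genes the shares were 1.75%, 3.08% and 2.07% in the CD4 gate and 2.33%, 2.66% and 4.00% in the CD8B gate. In the WC1 gate they were 5.73%, 7.98% and 4.40%. IL7R, the receptor for the survival factor IL-7, had log2 ratios of -0.18 to 0.37, and the FOXO1 ratios, of a factor known to drive KLF2, lay between -0.59 and 0.13.

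In CD4 and WC1 cells more of the 16 activation genes than of any other list were past 2-fold. This list, like the others, was chosen with earlier results of these data known. In the CD4 gate 7 of 15 were past 2-fold at 2 h, all higher, 7 of 15 at 4 h, 6 of them higher, and 2 of 13 at 8 h. Over all genes 1.75%, 3.08% and 2.07% were past it there. IRF4, a factor induced by antigen and cytokine signals, went from 4.37 CPM to 21.1, 31.7 and 17.6 CPM in the CD4 gate, and TNFRSF4 (OX40, a costimulatory receptor) from 53.0 to 196, 206 and 74.4 CPM. The other genes past 2-fold there at 2 h or 4 h were BATF, CD69, IL2RA, NR4A1, TNFRSF9 and TNFRSF18, all higher, and EGR1, lower at 4 h. In the WC1 gate 9 of 13, 7 of 12 and 5 of 12 were past it, all higher but TNFRSF9 at 8 h (-1.68), with CD69 at log2 ratios of 2.44, 2.16 and 2.52, PRDM1 at 1.72, 1.69 and 1.74 and TNFRSF18 at 2.75 and 2.35 at 2 h and 4 h. NR4A3, at 3.22 at 4 h, rested on 29 UMIs. The shares over all genes in the WC1 gate were 5.73%, 7.98% and 4.40%.

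The CD8B gate gave 3 of 15, 3 of 14 and 2 of 14, beside 2.33%, 2.66% and 4.00% of all genes. Most of the activation genes past 2-fold there were lower: NR4A1 (-3.22 at 4 h, from 33 UMIs), EGR1, TNFRSF9 and TNFRSF4 were lower, and CD69 and TNFRSF18 were higher at 2 h. The median log2 ratio of the activation genes was 0.90, 0.70 and 0.39 in the CD4 gate, 0.14, 0.37 and 0.02 in the CD8B gate and 1.72, 1.81 and 0.77 in the WC1 gate. The activation median was thus lowest in the CD8B gate at each time. Whether activation and the levels of the 4 genes are linked was not tested.

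Of 26 relatives and partners of the 4 genes, such as the TLE corepressors of LEF1 and TCF7, other KLF factors and the enzymes that make and degrade sphingosine 1-phosphate, 14 to 19 were measured. None was past 2-fold in the CD4 gate. Of all genes, 1.75% to 3.08% were past it in the CD4 gate, 2.33% to 4.00% in the CD8B gate and 4.40% to 7.98% in the WC1 gate. In the CD8B gate S1PR2 was higher at 2 h (1.18, from 20 UMIs), SGPL1, the lyase that degrades sphingosine 1-phosphate, was lower at 4 h and 8 h (-1.04 and -1.03, from 26 and 22 UMIs, the second interval holding 0), and S1PR5, a receptor of cytotoxic cells, was lower at 8 h (-1.03, from 41 UMIs). The lower NK cell marker sum at 8 h stands beside the S1PR5 value. In the WC1 gate ARRB2 was lower at 2 h, SPHK2 at 4 h and 8 h (the second interval holding 0) and KLF10 at 8 h, and TLE3 was higher at 4 h. TLE5, a truncated member of the corepressor family, was at -0.34, -0.37 and -0.22 in the CD4 gate, with every interval off 0.

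The levels of the 4 genes over the 12 sums (3 gates in 4 libraries) were compared by Pearson's r as a description, since these sums share libraries and gates. LEF1 and TCF7 had r = 0.70, LEF1 and S1PR1 0.55, and KLF2 and S1PR1 0.14. LEF1 and CCR7 had 0.81. Of 7763 genes with at least 200 UMIs, those most like LEF1 were ZBTB18, DGKA (a brake on T cell receptor signals), MSTO1, C28H1orf131 and FBXO32, with r from 0.97 to 0.95. The 5 most like TCF7 were ZMYM6, TMEM256, NUCKS1, PDCD2L and METTL5, from 0.93 to 0.90. For KLF2 they were SIPA1, AFF3, SAMD8, PES1 and KIF21B, from 0.94 to 0.88, and for S1PR1 they were WDHD1, THTPA, ZBTB49, FANCE and GSDMD, from 0.91 to 0.84. With so many genes and 12 points these names depended on the points used, and with 24 sums that included B cells, NK cells and monocytes none of the 20 names came up again for its gene.

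Chromatin at the 4 genes was read from scATAC-seq, in which a transposase cuts open DNA and the deposited tables give counts per gene and nucleus. The libraries held 975012, 30250143, 26837579 and 11957904 counts. The library without LPS was shallow, with a median of 213 counts per barcode against 2250 to 5205 in the others, and 29.2%, 24.7% and 13.5% of all genes were past 2-fold against it, so the LPS libraries are compared here with each other. LEF1 was past 2-fold against it at all 3 times and TCF7 at 2 h and 4 h, but LEF1 had only 26 counts there (26.7 CPM, 14.2 to 45.6). Against 2 h, 0 of 4 genes were past 2-fold at 4 h and at 8 h, beside 5.73% and 22.7% of all genes. No gene of CD3 has a row in these tables, so nuclei with a count at a T cell marker and none at a B cell marker were taken as T-marker nuclei (922, 595 and 516 with LPS), and the reverse as B-marker nuclei (1117, 793 and 756). Nuclei with both numbered 1172, 916 and 373 and were left out of these sets.

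LEF1 and TCF7 were more open in T-marker than in B-marker nuclei. LEF1 stood at 409, 386 and 236 CPM in T-marker nuclei and at 88.3, 79.4 and 67.9 CPM in B-marker nuclei (2 h, 4 h and 8 h), which is 4.63, 4.85 and 3.46 times. TCF7 stood at 412, 373 and 298 CPM against 152, 139 and 130.2 CPM, which is 2.71, 2.69 and 2.29 times. KLF2 was the reverse, at 183, 108 and 136 CPM against 282, 198 and 214 CPM, and S1PR1 stood at 111, 106 and 99.4 CPM against 112, 127.5 and 95.7 CPM, lower in T-marker nuclei at 4 h only. LEF1 and TCF7 were thus higher in T than in B cells in RNA and in chromatin, while S1PR1 was higher in T cells in RNA and not in chromatin.

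Over time, KLF2 was less open at 4 h than at 2 h in both sets, while its RNA at 4 h was 0.831 times that at 2 h in all T cells (0.660 to 1.04) and 0.656 times in B cells (0.472 to 0.906). The log2 ratio of 4 h to 2 h was -0.76 in T-marker nuclei, with an interval below 0, and -0.51 in B-marker nuclei (-0.66 to -0.35). LEF1 accessibility at 8 h was 0.574 times that at 2 h in T-marker nuclei (0.498 to 0.661) and 0.769 times in B-marker nuclei (0.613 to 0.960). LEF1 RNA in CD4 cells was 1.39 times (1.23 to 1.57), but without the upper limit on genes its log2 ratio to no LPS was 0.16 at 2 h and 0.09 at 8 h, so the higher RNA at 8 h was not seen there. TCF7 accessibility at 8 h was 0.723 times that at 2 h in T-marker nuclei. S1PR1 accessibility in T-marker nuclei did not differ between LPS times beyond counting error, with log2 ratios to 2 h of -0.07 and -0.15. The libraries differ in depth, in the share of nuclei with both kinds of marker and in the T cell markers that have a row (10, 9 and 7 at 2 h, 4 h and 8 h), so the marker sets were not chosen by the same genes at each time, and the part of these in the values was not tested.

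**Figure D5:**
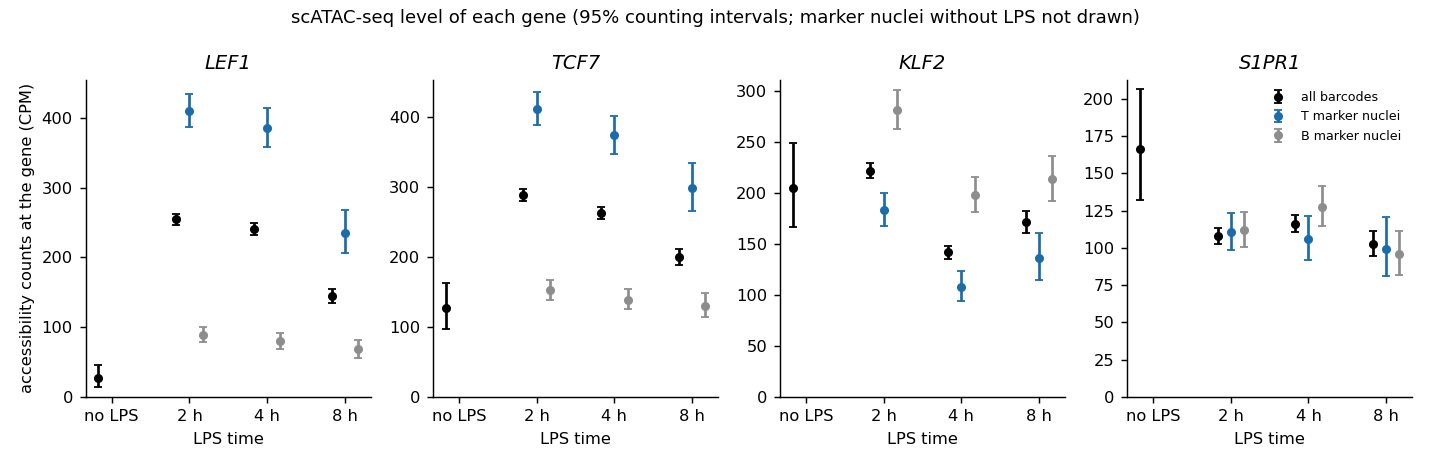
Accessibility counts at each gene (CPM) against LPS time in all barcodes (black), T-marker nuclei (blue) and B-marker nuclei (grey), with 95% counting intervals over fragments. LEF1 and TCF7 lie higher in T-marker than in B-marker nuclei at each LPS time, and KLF2 is lower at 4 h than at 2 h in both.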

How the data were processed

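UMI counts of each gene in each barcode, not normalised, were deposited by the authors for scRNA-seq (Chromium Single Cell 3′ v3 libraries, Cell Ranger on the ARS-UCD1.2 build) together with scATAC-seq counts by gene and barcode, whose counting rule is not given in the sources used here. Most scATAC-seq values were even, so intervals were computed over fragments, taken as counts divided by 2.

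Kept cells had between 200 and 3000 genes, 200 or more UMIs and less than 20% of them from 13 mitochondrial genes, and no doublet caller was run. B cells (CD79A, CD79B and MS4A1 summing to at least 2), NK cells (NCR1) and monocytes (CD14 and CSF1R) were taken among cells without CD3 UMIs. UMIs were summed per gate and library and compared as log2((CPM + 1)/(CPM + 1)), with Poisson, conditional binomial and binomial exact 95% intervals. PCR duplicates are removed by UMIs, but molecules of 1 cell are not independent, so intervals cover counting error only. A gene counted as past 2-fold had at least 20 UMIs over the 2 libraries. Differences between gates used a normal approximation on the reciprocal UMI counts, which takes the gates as separate although they share some cells. CD40LG has 2 rows, which were summed. Of the listed markers, TRAC, TRBC1, TRBC2, TRDC, TRGC1, TRGC2, PPBP and PF4 were not matched by name.

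Genes named are the 4 genes, companion-list genes past 2-fold in a gate, markers, and the 5 genes most like each, and others were chosen after their values were seen. The 4 genes and the lists were chosen with earlier results of these data known. Of the lists, 1 homing gene and 1 γδ T cell marker are not reported here. No sequence or coordinate was used. Analyses used Python 3.11.15, numpy 2.4.6, scipy 1.17.1 and pandas 2.3.3. edgeR 4.0.16 and DESeq2 1.42.0 in R 4.3.3 were used for scaling alternatives only. The ratio step was run on Poisson counts simulated for CD4 cells. The simulation held no variation between cells or libraries, so it says nothing about such variation. Alternatives concerned scaling, pseudocount, fold, minimum UMIs, cell limits, gates, thinning and barcode sets.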

Additional observations from a re-analysis of the deposited data

Results flagged for a closer look

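S1PR1 moved in opposite directions in CD8B and WC1 cells. Its log2 ratio to no LPS was higher in the CD8B gate than in the WC1 gate by 1.09 at 2 h and by 1.09 at 4 h, since the single library of each LPS time lay above the library without LPS in the CD8B gate and below it in the WC1 gate. With 1 library per treatment this difference was not tested. Among WC1 cells with no UMI of MS4A1, CD79A, CD14 or LYZ the WC1 log2 ratio was -0.27 at 2 h and -0.72 at 4 h.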

How the results depend on the processing

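No paired analysis was possible because each treatment had 1 library per assay, and for the same reason no replicate could be left out. None of the 36 log2 ratios of the 4 genes moved beyond its counting interval with edgeR TMM scaling, DESeq2 size factors, a pseudocount of 10 CPM, cells of at least 2000 UMIs, mitochondrial UMIs under 10%, cells of 1 gate only, at least 2 CD3 UMIs, cells with no B cell or monocyte UMI, or equal weight for each cell. The largest shift in log2 ratio was 0.06 with TMM, 0.04 with size factors, 0.04 with the mitochondrial limit, 0.21 with 2000 UMIs, 0.35 with 2 CD3 UMIs, 0.40 with no B cell or monocyte UMI, 0.42 with 1 gate only, 0.51 with equal weight and 0.56 with the pseudocount. Up to 2 of 36 changed sign under each of these settings, all from within 0.1 of 0 but LEF1 at 4 h in WC1 cells, which went from -0.44 to 0.04 with equal weight.

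Without an upper limit on genes 10 of the 36 moved and 6 changed sign. LEF1 was then 0.16 at 2 h and 0.093 at 8 h in CD4 cells, 0.21 at 8 h in CD8B cells and 0.57 at 2 h in WC1 cells. TCF7 was 0.025 and -0.29 at 2 h and 8 h in CD4 cells, 0.22 and 0.14 in CD8B cells, and 0.56 at 2 h and -0.17 at 4 h in WC1 cells. These cells hold up to 62.5% of a gate's UMIs, and the cause was not tested.

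Sums over cells thinned to 1000 UMIs, added after seeing the data, moved 17 of the 36 and changed the sign of 8. LEF1 was 0.075 and 0.27 at 2 h and 4 h in CD4 cells and 0.20 at 4 h in WC1 cells. TCF7 was -0.17 and -0.076 at 2 h and 4 h in CD4 cells, and -0.58 and 0.14 at 2 h and 8 h in WC1 cells. S1PR1 was 0.46 and -0.34 at 4 h and 8 h in CD4 cells, 1.13, 0.84 and 1.03 in CD8B cells, and -1.19 at 2 h in WC1 cells. At 8 h in WC1 cells S1PR1 went from -0.44 to 0.027, a change of sign within its counting interval. KLF2, with at most 9 UMIs, was 2.58 at 8 h in CD8B cells and 1.73, -2.83 and 1.63 in WC1 cells. Thinning leaves fewer UMIs and weighs cells equally, and the cause of the shifts was not tested.

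The number of the 4 genes past the fold changed as follows. With a fold of 1.5 it was 1 at 2 h and 1 at 4 h in CD4 cells, beside 7.37% and 10.6% of all genes. It was then 1 at 8 h in CD8B cells, beside 16.0%, and 1 at 2 h and 2 at 4 h in WC1 cells, beside 18.8% and 22.9%. At 4 h in CD4 cells it was 1 with cells of 1 gate only and 1 with equal weight for each cell. At 4 h in WC1 cells, where it was 1, it was 0 with at least 100 UMIs, a pseudocount of 10 CPM, no upper limit on genes, cells of 1 gate only, at least 2 CD3 UMIs, or no B cell or monocyte UMI. In thinned sums it was 1 in CD8B cells at 2 h and 8 h and 1 in WC1 cells at 2 h.

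The companion-list genes with enough UMIs numbered 60, 60 and 57 in CD4 cells, 59, 58 and 55 in CD8B cells and 52, 49 and 49 in WC1 cells. Of all genes, 1.75% to 3.08% were past 2-fold in CD4 cells, 2.33% to 4.00% in CD8B cells and 4.40% to 7.98% in WC1 cells. Of the companion-list genes, 8, 8 and 2 were past 2-fold in CD4 cells, 4, 4 and 5 in CD8B cells and 13, 12 and 7 in WC1 cells. With a fold of 1.5 there were 14 and 6 at 4 h and 8 h in CD4 cells, beside 10.6% and 9.69% of all genes. In CD8B cells there were then 12, 12 and 15, beside 10.3%, 10.8% and 16.0%. In WC1 cells there were 26 and 16 at 4 h and 8 h, beside 22.9% and 17.7%. With at least 100 UMIs there were 0 at 8 h in CD4 cells, 2, 0 and 0 in CD8B cells, and 6, 5 and 0 in WC1 cells. With no minimum there were 12 at 8 h in WC1 cells. With a pseudocount of 10 CPM there were 5 at 2 h and 0 at 8 h in CD4 cells, 2, 1 and 0 in CD8B cells, and 8 at 2 h and 4 at 8 h in WC1 cells. At 8 h in CD8B cells there were 3 with at least 2 CD3 UMIs and 8 with equal weight for each cell. Thinned sums gave 1 at 8 h in CD4 cells and 5 at 2 h in WC1 cells. Apart from the fold of 1.5, shares over all genes were not computed under these alternatives, for the 4 genes or for the lists.

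Of the 8 accessibility ratios to 2 h, 2 moved in T-marker nuclei, a set added after seeing the data. A minimum of 500 counts removed no barcode from the LPS libraries and so says nothing about these ratios. A selection of nuclei by CD3 was planned and not run, since these tables hold no row for those genes. Depth limits KLF2 most, with 6 to 52 UMIs per gate and library.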
